A study of Homo sapiens with 12 samples.

Results

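*RB1*-knockout cells were compared with sgControl cells at the same exposure to abemaciclib, across all genes with adequate counts. The comparison used 6 of the 12 libraries in the series, namely the 3 knockout and the 3 sgControl libraries whose labels give the drug. The cells were ZR-75-1, an established oestrogen receptor-positive breast cancer line, edited by CRISPR with an sgRNA against *RB1* or, for sgControl, with a non-targeting sgRNA. Cultures of both genotypes had spent 5 days in 500 nM abemaciclib, a drug that inhibits CDK4 and CDK6, and the 6 remaining libraries came from the same genotypes in the solvent DMSO. According to the labels, the cells of each genotype were isogenic clones, and the study's methods describe sorting of single edited cells. The number of clones per genotype is not given in the sources used here, so an effect of the genotype and a property of a clone cannot be told apart. The study describes the replicates of its RNA-seq in cell lines as separate cultures, so p-values measure the spread between cultures of these cells and not between independently edited clones.

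Rb, the product of *RB1*, holds E2F transcription factors inactive early in the cell cycle. Cyclin D with CDK4 or CDK6, and later cyclin E with CDK2, phosphorylates Rb and frees E2F, which turns on genes for DNA synthesis. Genes for mitosis follow later in the cycle, many of them through the cell cycle homology region (CHR), a short promoter element bound by the DREAM and MuvB complexes. CDK4/6 inhibitors keep Rb active, so cells that hold Rb arrest before S phase, whereas loss of *RB1* is a known route to resistance. In oestrogen receptor-positive breast cells the receptor drives a luminal programme alongside proliferation.

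The 6 libraries held 49711542 to 66696995 counts, within the range of 39907318 to 81636393 for all 12. Mitochondrial genes took 7.22 to 8.53% of counts in sgControl and 5.44 to 7.39% in the knockout. *RB1* (chr13:48303744-48599436, plus strand, GRCh38), checked in every sample, had 2252, 2375 and 2489 normalized counts in sgControl in abemaciclib against 54.4, 44.2 and 63.5 in the knockout. In DMSO the values were 4154, 4825 and 4752 against 39.6, 49.6 and 51.2, so that no library went against its label. A normalized count here is a read count divided by the library's size factor, and pairs of values give sgControl first and the knockout after it. The luminal markers *ESR1*, *GATA3*, *FOXA1*, *KRT8*, *KRT18*, *KRT19*, *EPCAM* and *CDH1* were present in both genotypes, each with a mean above 5000 normalized counts.

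Of 22260 genes tested with DESeq2, 12002 (53.9%) passed an adjusted p-value of 0.05 and are termed called below. Of these, 6117 (27.5% of those tested) were higher and 5885 (26.4%) lower in the knockout. These shares are the background for every list count below, and a list near them is not set apart by its counts. At least a 2-fold difference was found for 3064 higher genes (13.8%) and 2082 lower genes (9.35%), and the values of the 2 groups of libraries did not overlap for 14267 genes (64.1%). The median absolute log2 difference of called genes was 0.83, and 1077 higher and 450 lower genes differed by at least 3 on the log2 scale. Over genes with a mean of at least 100 normalized counts, the first principal component of the 6 libraries separated the genotypes and held 97.4% of the variance. Size factors set by total counts moved the log2 difference of the median gene by 0.11 and made 59.2% of the called genes higher, against 51.0% with the factors used here, so small differences are relative to the median gene. All values are relative within a library, and in bulk RNA fewer cells of a type and less RNA per cell cannot be told apart.

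**Figure D1:**
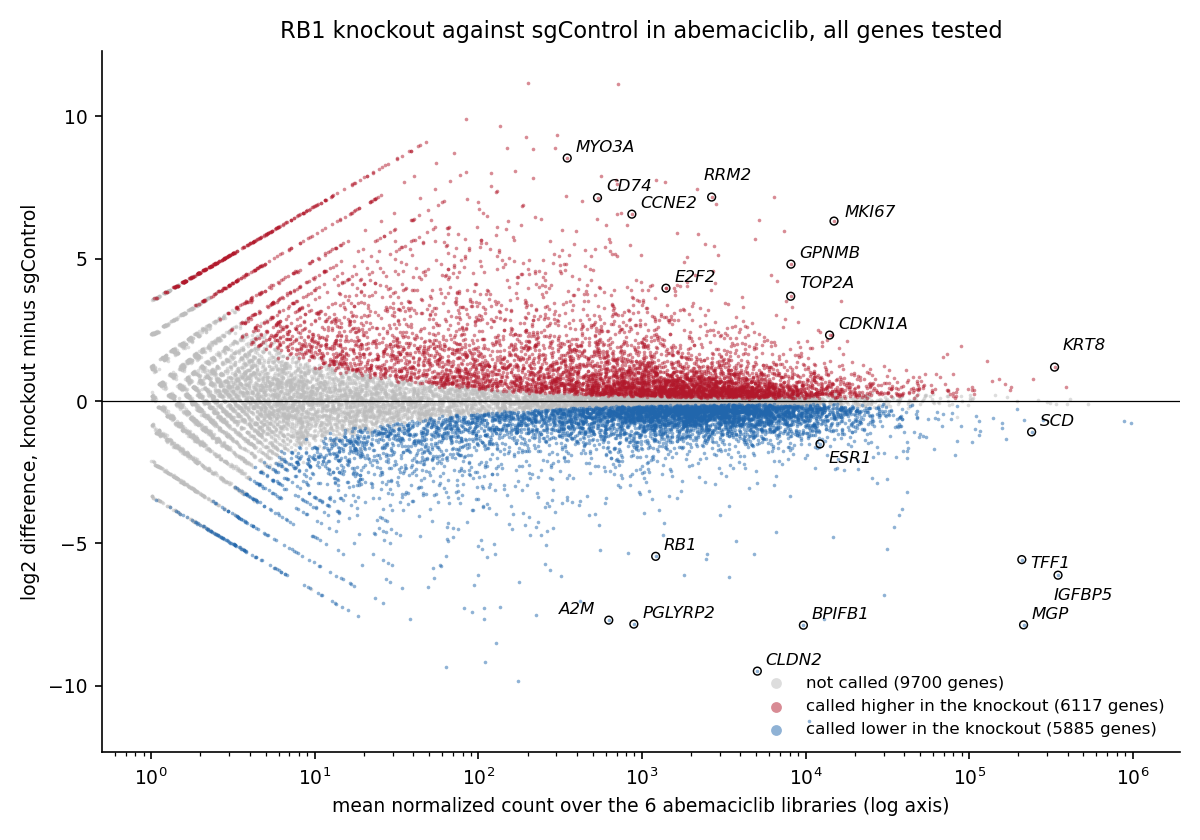
Log2 difference (knockout minus sgControl in abemaciclib, vertical axis) against the mean normalized count of the 6 libraries (horizontal log axis), with called genes coloured by direction. Genes tested with a mean of at least 1 are drawn. Called genes lie on both sides, and over all genes tested 6117 were higher and 5885 lower. The straight lines of points at low counts are genes at or near 0 in 1 group, whose fitted values are not bounds.

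Genes of the G1 phase machinery differed in 21 of 22 tested members. In this list of G1 cyclins, CDKs and CDK inhibitors, which holds *RB1* itself, 17 were higher and 4 lower in the knockout (27.5% and 26.4% of all genes tested), with a median log2 difference of 1.80 against 0.02 for all genes. *CCNE2* encodes cyclin E2, a partner of CDK2, and had 18.3, 18.6 and 17.6 normalized counts in sgControl and 1747, 1702 and 1699.6 in the knockout. The groups were 94.5-fold apart and far from overlapping (log2 difference 6.56 ± 0.20, SE; adjusted p = 1.91e-224). *CCND1*, for cyclin D1, the partner of the drug's targets, went the other way. It had 148658, 156886 and 147614 normalized counts in sgControl and 54388, 57689.5 and 55529.5 in the knockout (log2 difference −1.44 ± 0.05, adjusted p = 1.19e-154). All 3 sgControl libraries lay above all 3 knockout libraries.

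Several CDK inhibitors were higher in the knockout in abemaciclib. *CDKN1A*, encoding p21, had 4428, 4788 and 4855 normalized counts in sgControl and 23146, 23384 and 23539 in the knockout (log2 difference 2.32 ± 0.06, adjusted p = 1.14e-297). *CDKN2A*, encoding p16 and p14ARF, had 164, 158 and 149.8 against 1564, 1624 and 1634 (log2 difference 3.35 ± 0.10, adjusted p = 4.71e-242). For both, the knockout libraries lay above the sgControl libraries. In DMSO *CDKN1A* had means of 20332 and 29698 (log2 difference 0.55), and *CDKN2A* had 1378 and 1558 and was not called (adjusted p = 0.0758). *CDKN1C*, for p57, had 2.2, 1.8 and 7.9 against 108, 113 and 122 (4.81 ± 0.44, adjusted p = 2.61e-27). Of the other inhibitors, *CDKN2C* (p18) differed by 3.06 ± 0.07 and *CDKN1B* (p27) by 0.47 ± 0.06, while *CDKN2B* (p15) was lower by a log2 value of −0.50. Among cyclins and kinases, *CCNA2* (cyclin A2) differed by 4.41 ± 0.07, *CCNE1* by 1.82 ± 0.07, *CDK2* by 1.47 ± 0.07 and *CDK6* by 2.58 ± 0.21. The Rb relatives parted: *RBL1* (p107) was higher (2.02 ± 0.12) and *RBL2* (p130) lower (−0.51 ± 0.10). *CKS1B*, a CDK subunit, did not pass the test (log2 difference −0.10, adjusted p = 0.287), and *CCND2* had no counts in any library.

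**Figure D2:**
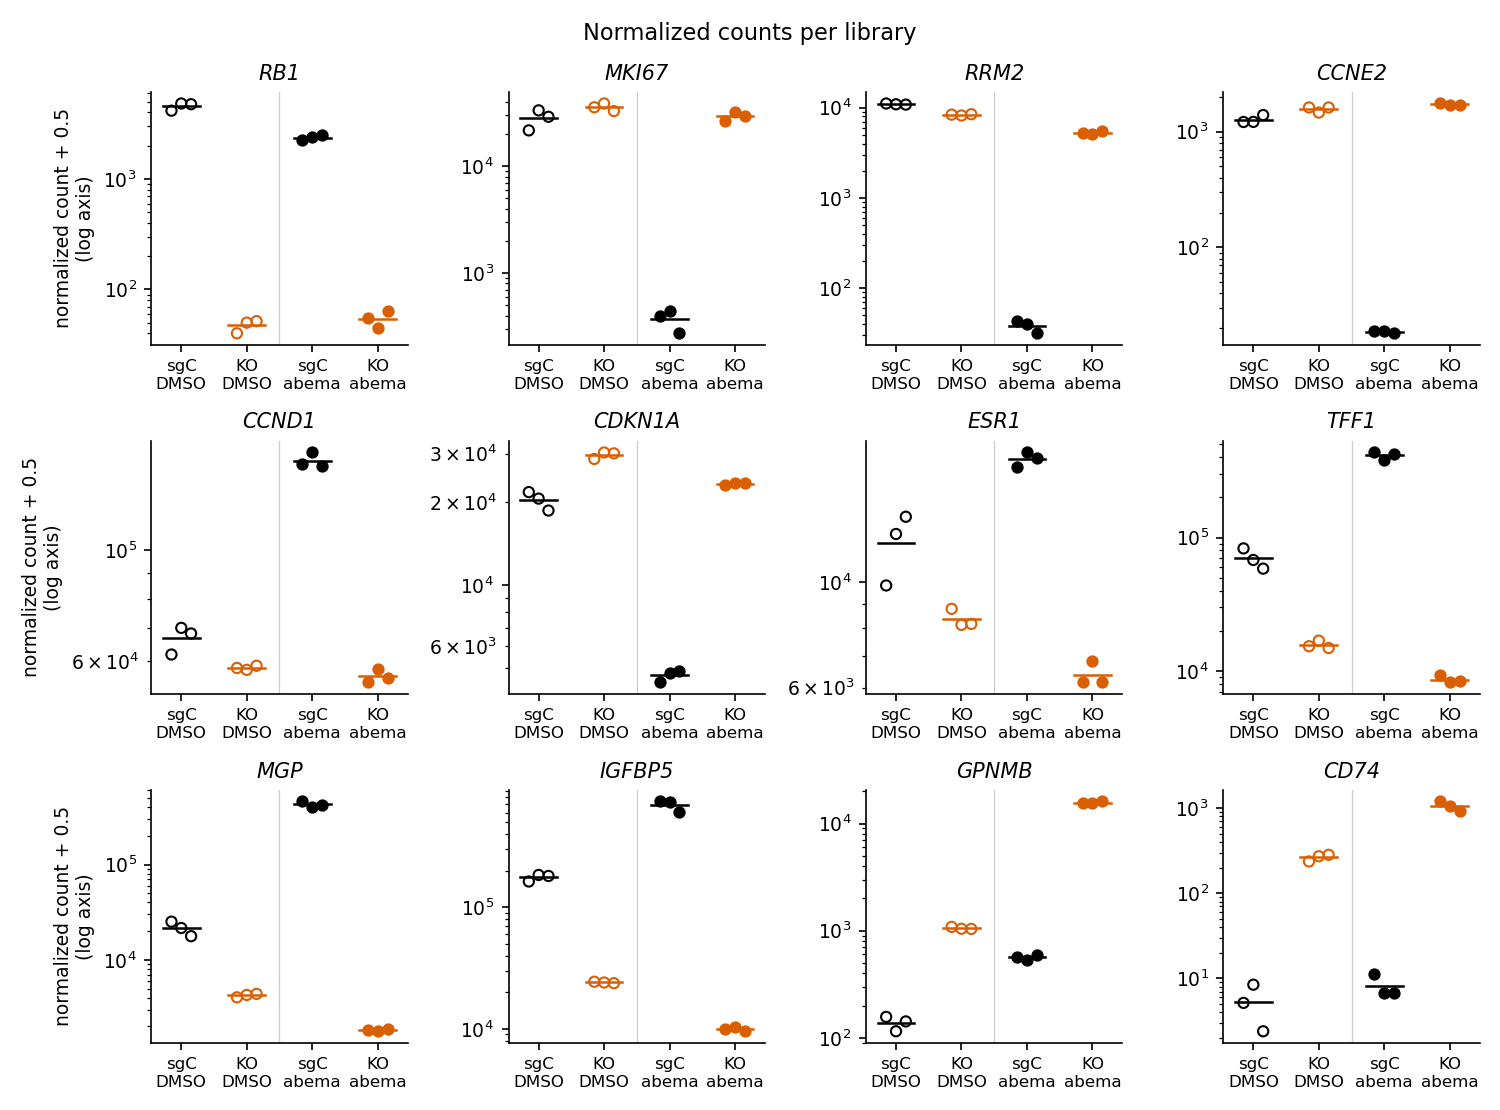
Normalized count plus 0.5 (log axis) of 12 genes in each of the 12 libraries. Each point is a library and each bar the mean of 3; open symbols are DMSO and filled symbols abemaciclib, black sgControl (sgC) and orange knockout (KO). In abemaciclib the knockout lies above sgControl for *MKI67*, *RRM2*, *CCNE2*, *CDKN1A*, *GPNMB* and *CD74* and below it for *RB1*, *CCND1*, *ESR1*, *TFF1*, *MGP* and *IGFBP5*.

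Of the 10 E2F and DP genes, 6 were higher and 0 lower, and the median log2 difference was 0.37. The called members had very different sizes of difference. *E2F7* and *E2F8* encode atypical E2Fs that repress E2F targets, and *E2F7* had 14, 9.7 and 14.1 normalized counts in sgControl and 982, 1117 and 1032 in the knockout (log2 difference 6.38 ± 0.26, adjusted p = 9.6e-128). *E2F8* rose from a mean of 32.3 to 870.1 across the genotypes (4.74 ± 0.17). Of the activating E2Fs, *E2F2* had 186, 170.0 and 153 against 2553, 2767 and 2584 normalized counts (3.96 ± 0.08, adjusted p too small to be represented) and *E2F1* only 3858, 3715 and 3850.5 against 6649.8, 6499.6 and 6516 (0.78 ± 0.06, adjusted p = 2.97e-43). Neither pair of groups overlapped. *E2F3*, *E2F4*, *E2F5* and *TFDP2* did not pass the test, with log2 differences between −0.21 and −0.03.

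Promoters of *E2F1*, *E2F2* and *TYMS* are shown because they carry letters of the E2F consensus. The windows are from RefSeq on GRCh38.p14 and run from 250 bases before to 50 after a gene's start. The letters searched on both strands were TTTGGCGC, TTTCCCGC, TTTGCCGC and TTTCGCGC, and they are in capitals below. The *E2F1* stretch is chr20:33686386-33686445 on the minus strand with matches starting 20 bases and, read from the other strand, 33 bases before the start, the *E2F2* stretch chr1:23531234-23531315 on the minus strand with the match 42 bases before, and the stretch of *TYMS* (thymidylate synthase) chr18:657574-657652 on the plus strand with the match, read from the other strand, 39 bases before.
E2F1: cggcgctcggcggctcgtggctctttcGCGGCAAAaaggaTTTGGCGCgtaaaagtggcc
E2F2: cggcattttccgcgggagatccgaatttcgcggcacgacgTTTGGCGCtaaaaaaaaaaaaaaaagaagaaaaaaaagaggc
TYMS: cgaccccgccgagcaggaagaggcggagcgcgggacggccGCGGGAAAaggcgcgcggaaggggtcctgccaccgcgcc
Such letters stood in 1164 of 35116 windows (3.31%) and, among genes with 1 window each, in 487 of 9357 tested genes (5.20%). They stood in 209 of 2991 genes called higher (6.99%) and in 117 of 3027 called lower (3.87%). The share among genes higher by at least 2-fold was 6.31%. In the list of replication licensing and fork genes they stood in 16 of 27 windows (59.3%), and among the E2F and DP genes in 3 of 6. Shares were smaller for nucleotide supply, the list of *TYMS* (2 of 11), recombination (4 of 20) and replication-dependent histones (13 of 40). A match is a run of letters and not a measured binding site.

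Replication licensing and fork genes were higher in 36 of 40 members and lower in 3, with a median log2 difference of 1.24, and 26 were higher by at least 2-fold (13.8% of all genes tested). *MCM2*, a subunit of the replicative helicase, had 4756, 4508 and 4605 normalized counts in sgControl and 16274, 17297 and 16572 in the knockout (log2 difference 1.85 ± 0.05, adjusted p = 7.74e-301). All 6 genes of the helicase ring, *MCM2* to *MCM7*, were higher, by 1.14 (*MCM3*) to 2.04 (*MCM6*). *CDC6*, which loads the helicase, had 2588, 2435 and 2421 against 4747, 4788 and 4795 (0.95 ± 0.05, adjusted p = 5.07e-95), and *MCM10*, which acts when origins fire, 109, 144 and 142 against 1155, 1240.3 and 1202 (3.18 ± 0.10, adjusted p = 1.81e-204). No libraries of the 2 groups overlapped for these genes. The member with the largest difference was *CLSPN*, the checkpoint mediator claspin (131 to 2179 normalized counts, 4.06 ± 0.10). The 3 lower members were *GINS4* (−0.40), *RFC3* (−0.33) and *RPA2* (−0.31), and *ORC6* did not pass the test (adjusted p = 0.413). *RFC3* lies on chromosome 13, whose genes are described below.

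Genes that supply nucleotides for DNA synthesis were higher in 19 of 20 members, with a median log2 difference of 0.91. The largest difference was that of *RRM2*, the small subunit of ribonucleotide reductase. It had 42, 39 and 30.8 normalized counts in sgControl and 5289, 5123 and 5477 in the knockout, a 143-fold difference (log2 7.16 ± 0.14, adjusted p too small to be represented). *TYMS*, which makes thymidylate and is a target of fluoropyrimidines, had 176, 196 and 194 against 9509, 9785 and 9706 (5.68 ± 0.07, adjusted p too small to be represented). *TK1*, for the salvage enzyme thymidine kinase 1, had 3464, 3339 and 3392 against 7841, 7627 and 7548, a much smaller difference (1.18 ± 0.08, adjusted p = 1.4e-44), and no groups overlapped for these 3 genes. Enzymes of purine synthesis were among the members with the smallest differences, such as *GART* (0.28) and *PAICS* (0.51). The lower member was *DCTPP1*, a nucleotide hydrolase (−0.20 ± 0.07, adjusted p = 0.0102), whose call was lost when total counts set the factors (adjusted p = 0.217), without replicate 1 of the knockout (0.0523) or without replicate 3 of sgControl (0.0622). *RRM2* has near-identical copies in the genome that could take some of its reads.

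Mitotic genes were higher in almost every member. Of 53 members, 52 were higher and 0 lower in the knockout, 47 of them by at least 2-fold, and the median log2 difference was 2.36. *MKI67* encodes the proliferation marker Ki-67 and had 396, 441 and 272 normalized counts in sgControl and 26768, 32037 and 29666 in the knockout (log2 difference 6.32 ± 0.20, adjusted p = 1.65e-215). The lowest knockout library held many times the highest sgControl library. *PLK1*, for polo-like kinase 1, had 749, 699.6 and 642 against 12848, 12812 and 12673 (4.20 ± 0.07, adjusted p too small to be represented), and *AURKB*, for the kinase of the chromosomal passenger complex, 36.6, 43.4 and 30.8 against 1746, 1592 and 1598 (5.48 ± 0.16, adjusted p = 4.28e-266). *TOP2A*, for the topoisomerase that untangles chromosomes, had 1151, 1227 and 1149 against 14763, 15256 and 15155 (3.68 ± 0.08, adjusted p too small to be represented). No groups overlapped for these 4 genes.

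The size of the difference varied widely among the other mitotic genes. *KIF20A* (a kinesin of cytokinesis, 5.52 ± 0.10), *PTTG1* (securin, 5.05 ± 0.13) and *CENPA* (the centromeric histone, 4.39 ± 0.17) differed most, while *MAD2L1* (spindle checkpoint, 0.30 ± 0.07) and *ECT2* (cytokinesis, 0.43 ± 0.07) differed least among those called. *NUSAP1*, a spindle protein, did not pass the test at means of 30.5 and 27.7 normalized counts (adjusted p = 0.76). Of the same 53 genes, 1 was higher and 31 were lower in the knockout in DMSO, where 31.4% of 19757 genes tested were called (16.2% higher and 15.2% lower). The difference between the abemaciclib and the DMSO contrast was itself called for 52 of the 53 (41.2% of 21008 genes tested).

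CHR letters stood in the promoters of most mitotic genes and few of the licensing genes. The letters searched were TTTGAA and TTCGAA on both strands, neither of which is contained in the E2F letters, and they are in capitals below. In *MKI67* (chr10:128126424-128126492, minus strand) they start 29 and 47 bases before the gene's start, and in *PLK1* (chr16:23678820-23678888, plus strand) 29 bases before it. In *TOP2A* (chr17:40418002-40418087, minus strand) they start, read from the other strand, 151 bases before it, and a further match 194 bases before it lies outside the stretch shown.
MKI67: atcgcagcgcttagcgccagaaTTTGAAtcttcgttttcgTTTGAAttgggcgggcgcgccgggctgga
PLK1: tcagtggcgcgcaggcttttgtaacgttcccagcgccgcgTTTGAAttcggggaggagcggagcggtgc
TOP2A: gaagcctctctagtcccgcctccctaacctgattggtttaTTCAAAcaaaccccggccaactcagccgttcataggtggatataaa
They stood in 29 of 39 windows of the mitotic list (74.4%) and in 2 of 27 of the licensing list (7.41%). The shares were 16.4% of all 35116 windows, 11.3% of tested genes with 1 window, 12.5% of those called higher and 9.38% of those called lower. The CHR letters also stood in 13 of 40 windows of replication-dependent histones, 3 of 11 of nucleotide supply and 4 of 18 of antigen presentation. They stood in 2 of 20 of recombination, 0 of 6 of E2F and DP genes and 1 of 25 of the lysosome list. The E2F letters stood in 3 of the 39 mitotic windows (7.69%).

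Genes of homologous recombination and the Fanconi pathway were higher in 24 of 30 members and lower in 4, with a median log2 difference of 0.99. *BRCA1* had 935, 1029 and 945 normalized counts in sgControl and 2168, 2434 and 2432 in the knockout (1.27 ± 0.10, adjusted p = 8.44e-39). All 3 knockout libraries lay above all 3 sgControl libraries. The extremes of the list were *HELLS*, a chromatin remodeller (196 to 1706, 3.12 ± 0.10), and *RAD18*, a ubiquitin ligase of damage tolerance (2741 to 1495, −0.88 ± 0.07).

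Replication-dependent histone genes went both ways. Of 38 tested of 48, 13 were higher and 6 lower in the knockout (27.5% and 26.4% of all genes tested), and 19 did not pass the test (median log2 difference 0.46). Of the lower ones, *H2AC6* had 2277, 2416 and 2551 normalized counts in sgControl and 1334, 1352 and 1465 in the knockout (−0.80 ± 0.08, adjusted p = 6.19e-21), and *H4C8* was lowest (1379.7 to 457, −1.59 ± 0.09). *H4C3* overlapped between the groups (20.5, 5.3 and 8.8 against 11.3, 21.1 and 21.2, adjusted p = 0.271), though it passed without replicate 1 of sgControl (adjusted p = 0.0366). The largest difference upward was that of *H4C1*, with 1 read in sgControl and 27 in the knockout, a ratio of 30.5 with a 95% counting interval from 5.03 to 1250. Counting intervals cover counting error only. Histone genes of 1 class are near-identical, so reads could be split between them. In abemaciclib, 12 members of the list had means below 10 normalized counts in both groups. The sources name different kinds of library kit, and how fully these transcripts were captured was not tested.

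**Figure D3:**
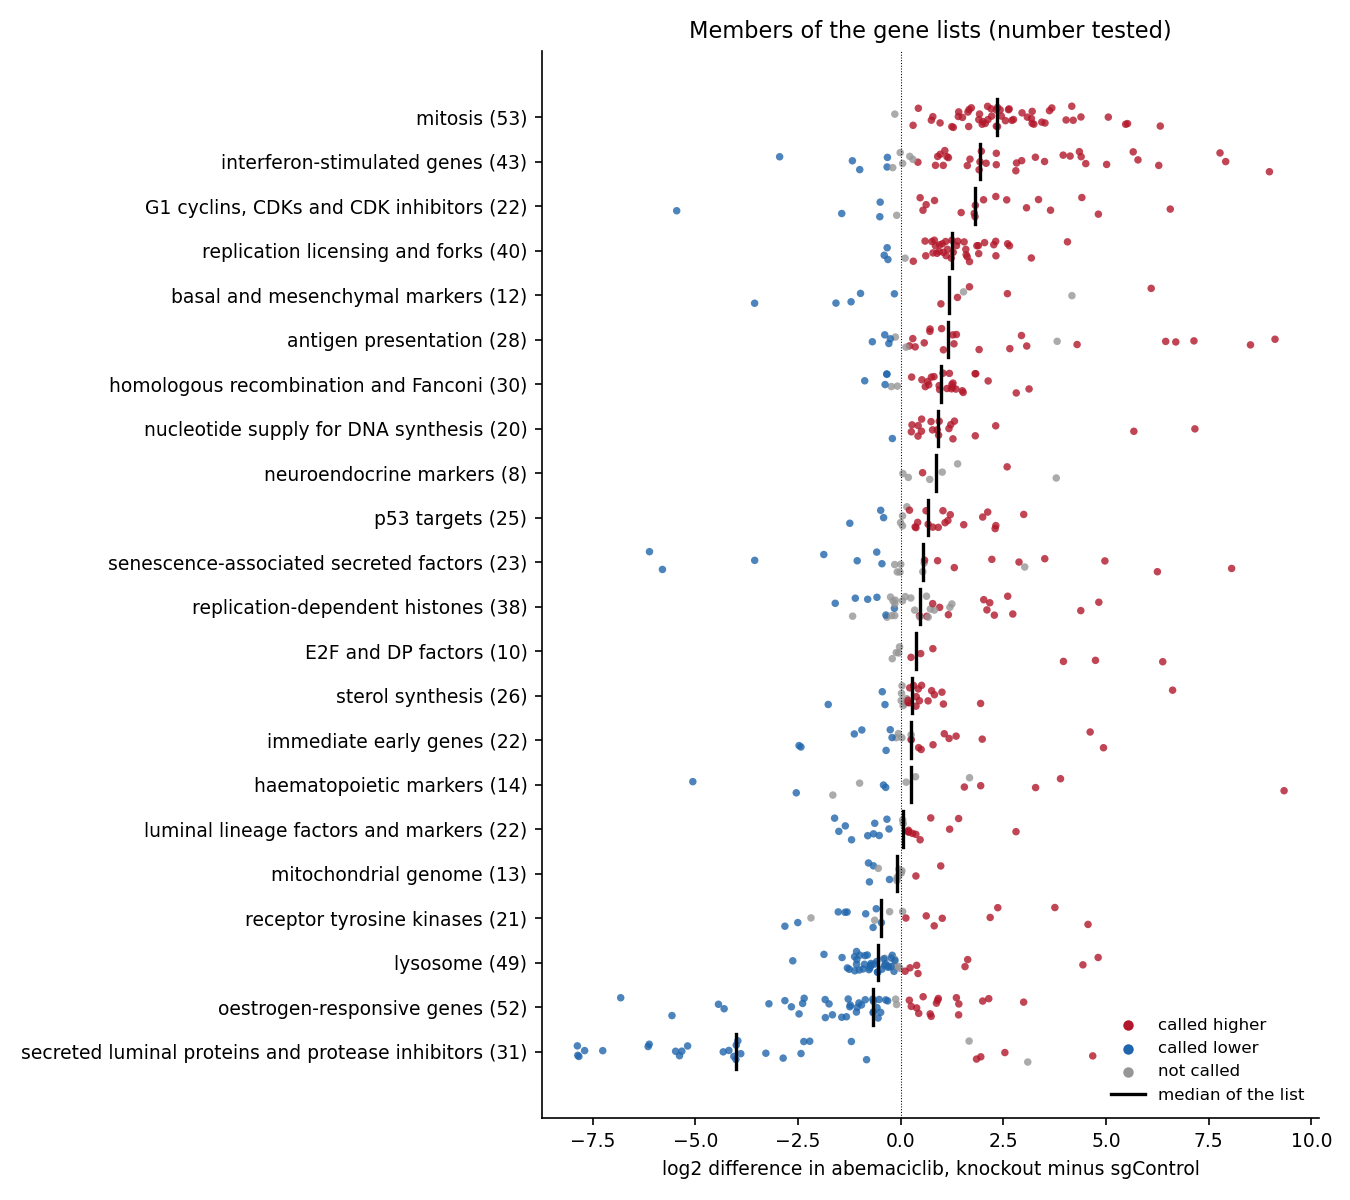
Log2 difference (knockout minus sgControl in abemaciclib, horizontal axis) of each tested member of the 22 gene lists, 1 row per list, with the median of each list marked. The mitotic list (median 2.36) lies almost wholly to the right, and the list of secreted luminal proteins (median −4.0) mostly to the left.

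Secreted luminal proteins and protease inhibitors had the median farthest from 0 of the 22 lists. Of 31 tested of 34, 25 were lower and 4 higher in the knockout, 24 of the lower ones by at least 2-fold (9.35% of all genes tested), and the median log2 difference was −4.0. *MGP* (chr12:14880864-14885857, minus strand) encodes matrix Gla protein, an inhibitor of calcification. It had 458454, 406009 and 421532 normalized counts in sgControl and 1855, 1782 and 1900.3 in the knockout (log2 difference −7.86 ± 0.10, adjusted p too small to be represented), a 232-fold difference with no overlap. *BPIFB1*, of the family of lipid-binding secreted proteins, had 18566, 19904 and 19497 against 86.1, 82.1 and 79.7 (−7.87 ± 0.12, adjusted p too small to be represented). *SERPINA1*, for alpha-1-antitrypsin, had 66404, 57199 and 59136 against 1819.9, 1529.9 and 1667 (−5.19 ± 0.11, adjusted p too small to be represented), and *SCGB2A2*, for mammaglobin A, 9908, 8471 and 10008 against 251, 225 and 204 (−5.38 ± 0.15, adjusted p = 1.41e-293). The groups stood apart for each of them. The summed normalized counts of the list were 657232 to 729299 in sgControl and 23823 to 24185 in the knockout. The higher members were *C3*, *MUC5AC*, *WFDC2* and *PIGR*, the last, for the receptor that carries immunoglobulins across epithelia, with 2.2, 3.5 and 0 against 56.6, 49.5 and 38.3 (4.67 ± 0.72). In DMSO 19 members were lower and 4 higher, and the difference between the contrasts was called for 21 of 30.

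Oestrogen-responsive genes were lower in the knockout in 34 of 52 members and higher in 16, with a median log2 difference of −0.67. *TFF1* (chr21:42362282-42366535, minus strand), for a secreted trefoil peptide and a classical target of the oestrogen receptor, had 431974, 379148 and 422535 normalized counts in sgControl and 9319, 8279 and 8409 in the knockout (log2 difference −5.57 ± 0.11, adjusted p too small to be represented). *PDZK1*, for a scaffold of membrane transporters, had 60812, 57655 and 61122 against 567, 488 and 539 (−6.82 ± 0.08, adjusted p too small to be represented). Both were far from overlapping. *GREB1* and *PGR*, further targets of the receptor, were much closer between the genotypes. *GREB1* had 22444, 23213 and 17507 against 17910.0, 17704 and 15042, values that overlapped, and its log2 difference of −0.32 ± 0.14 (adjusted p = 0.0441) was not called with the replicate number as a block in all 12 libraries (adjusted p = 0.197), with factors from total counts (0.291), or without replicate 2 (0.0568) or 3 (0.201) of the knockout or replicate 1 (0.14) or 2 (0.188) of sgControl. With the block in the 6 abemaciclib libraries alone, whose numbers were treated as pairs, it was called lower (−0.30, adjusted p = 5.45e-11). *PGR*, for the progesterone receptor, had 6447, 6269 and 6152 against 5664, 6194 and 5747 and did not pass (−0.10 ± 0.10, adjusted p = 0.442). The higher members included *RAB31*, a Rab GTPase (293 to 2331, 2.99 ± 0.08), *IL17RB* (2.14 ± 0.08) and *IRS1*, the adaptor of insulin signalling (2.00 ± 0.11). In DMSO 26 members were lower and 13 higher.

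Lineage factors and luminal markers split evenly, with 10 of 22 higher and 10 lower (median log2 difference 0.05). *ESR1*, for the oestrogen receptor, had 17473, 18712 and 18218 normalized counts in sgControl and 6168, 6833 and 6157 in the knockout (−1.51 ± 0.10, adjusted p = 6.43e-51), with no overlap. *FOXA1*, its pioneer factor, had 27178, 28025 and 26037 against 15779.8, 15932 and 14863 (−0.80 ± 0.05, adjusted p = 2.43e-47), and *GATA3* 39283, 37929.6 and 34326 against 30858, 29072 and 28506, a smaller difference without overlap (−0.33 ± 0.06, adjusted p = 7.78e-07). The higher members included keratins and junction proteins: *KRT8* had 222752, 187330.4 and 198531 against 478573, 446295 and 464483 (1.19 ± 0.10, adjusted p = 1.74e-29), and *CLDN4* differed by 0.73 ± 0.07. *KRT19* went the other way (−0.66 ± 0.10). *ELF5*, of the alveolar lineage, had 7 reads in sgControl and 43 in the knockout, a ratio of 6.94 with a 95% counting interval from 3.10 to 18.3, and was not called without replicate 3 of the knockout (adjusted p = 0.0511).

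Lysosomal genes were lower in the knockout in 36 of 49 tested members and higher in 8, with a median log2 difference of −0.56. *LAMP1*, for a main membrane protein of lysosomes, had 50545, 46508 and 46091 normalized counts in sgControl and 25665, 24762 and 25432 in the knockout (−0.92 ± 0.08, adjusted p = 1.49e-32), with no overlap. *LAMP1* also lies on chromosome 13. Of the hydrolases, *GAA* (acid alpha-glucosidase, −1.43 ± 0.06) and *ARSA* (arylsulphatase A, −1.87 ± 0.10) were lower, and the lowest member was the autophagy gene *GABARAPL1* (2633 to 426, −2.63 ± 0.08). Against this, *GPNMB*, for a lysosomal and melanosomal glycoprotein, had 568, 529 and 589 against 15661, 15434 and 16083 (4.81 ± 0.07, adjusted p too small to be represented), a 28-fold difference upward. *CTSD*, for cathepsin D, was also higher, with 68314, 60583 and 63042 against 92624, 77809 and 80889 (0.39 ± 0.13, adjusted p = 0.00448) and no overlap. Its difference was larger in DMSO, with means of 25676 and 88393 (log2 difference 1.78), whereas that of *GPNMB* was smaller there (2.94). In DMSO 10 members were lower and 13 higher, and the difference between the contrasts was called for 37 of 49.

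Sterol synthesis genes were higher in 17 of 26 members and lower in 3, mostly by small amounts (median log2 difference 0.27, and 4 higher by at least 2-fold). *SQLE*, for squalene epoxidase, had 5106, 4849 and 4937 normalized counts in sgControl and 7275, 7096 and 6809.6 in the knockout (0.51 ± 0.04, adjusted p = 1.62e-30), and the groups did not overlap. *SREBF1*, for a transcription factor of lipid synthesis, was the lowest member (64022 to 18849.7, −1.76 ± 0.04).

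Interferon-stimulated genes were higher in 33 of 43 tested members and lower in 5, with a median log2 difference of 1.93. Of these members, 6 had no read in 1 group, and the median was the same with those at their bound, as it was for each other list with such genes. *IFI27* had 11.9, 7.1 and 12.3 normalized counts in sgControl and 172, 154 and 216 in the knockout (4.12 ± 0.34, adjusted p = 3.76e-33), and *IFIT1*, for an RNA-binding antiviral protein, 6.5, 5.3 and 5.3 against 122, 108 and 125 (4.39 ± 0.39, adjusted p = 5.77e-28). *CMPK2*, a mitochondrial nucleotide kinase, had no read in sgControl and 247 in the knockout and was at least 93.1-fold higher, against a floor of 3 counts over the group. Members with many reads in both genotypes went both ways: *OAS3* was higher (1023 to 7214, 2.82 ± 0.09), *OAS2* lower (488 to 216, −1.18 ± 0.12) and *BST2* did not pass (adjusted p = 0.916). The lowest was *EPSTI1* on chromosome 13 (68.7 to 9, −2.95 ± 0.40). In DMSO 23 members were higher and 1 lower.

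The antigen presentation list had 21 higher and 4 lower of 28 tested members, with a median log2 difference of 1.15. *CD74* (chr5:150401637-150412969, minus strand), for the invariant chain of class II molecules, had 10.8, 6.2 and 6.2 normalized counts in sgControl and 1199, 1054 and 933 in the knockout (7.14 ± 0.32, adjusted p = 3.06e-108). *HLA-DRA*, of class II, had 7.5, 2.7 and 5.3 against 482, 385 and 452 (6.45 ± 0.40, adjusted p = 6.17e-56), and *CIITA*, for the class II transactivator, 12.9, 18.6 and 20.3 against 131, 145 and 125 (2.94 ± 0.29, adjusted p = 3.61e-23). For each, every knockout library lay above every sgControl library. *HLA-DPA1* had no read in sgControl and 271 in the knockout, at least 102-fold higher. Of class I, *HLA-C* (−0.29 ± 0.09) and *HLA-F* (−0.69 ± 0.12) were lower, as was *HLA-DQB1* of class II (−0.25 ± 0.09), whereas *HLA-B* (0.21 ± 0.08) and *HLA-E* (0.29 ± 0.07) were higher. *B2M*, the class I light chain, was higher as well (0.57 ± 0.09), as were the immunoproteasome genes *PSMB8* (2.66 ± 0.10) and *PSMB9* (3.07 ± 0.16). HLA genes are similar to each other, so their counts are uncertain. In DMSO 17 members of the list were higher and 0 lower.

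Targets of p53 were higher in 18 of 25 tested members and lower in 3 (median log2 difference 0.67). Besides *CDKN1A*, *GDF15*, for a secreted stress cytokine, had 854, 1045 and 1132 normalized counts in sgControl and 4916, 5181 and 4832 in the knockout (2.30 ± 0.11, adjusted p = 2.42e-93). *FAS*, for a death receptor, was the member with the largest difference (52.6 to 422, 3.00 ± 0.15). *MDM2*, for the ligase that degrades p53, had 14342, 14699.8 and 13079 against 17155, 15326 and 14289, values that overlapped (0.15 ± 0.08, adjusted p = 0.0866), though it was higher in the knockout in all 3 same-numbered pairs and passed when the 6 libraries were fitted alone (adjusted p = 0.0246 without and 0.00111 with the replicate block), with total-count factors (0.00817) and without replicate 3 of the knockout (0.0213). The lowest was *TP53INP1* (846 to 359, −1.24 ± 0.17). In DMSO 12 members were higher and 0 lower.

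Secreted factors associated with senescence had 9 higher and 7 lower of 23 tested of 36 (27.5% and 26.4% of all genes tested), with a median log2 difference of 0.54. *IGFBP5*, for a binding protein of insulin-like growth factors, had 739223, 726706 and 601778 normalized counts in sgControl and 9965, 10333 and 9544 in the knockout (−6.12 ± 0.08, adjusted p too small to be represented). *IGFBP3* (−3.55 ± 0.19) and *TIMP1*, for an inhibitor of metalloproteinases (−1.87 ± 0.13), were lower as well, and *SERPINE2* had 203, 201 and 192 against 82.7, 89.5 and 113 (−1.06 ± 0.18, adjusted p = 3.61e-08). None of these groups overlapped. *FGF2* had 2 reads in sgControl and 472 in the knockout, a ratio of 267 with an interval from 73.4 to 2210. *CCL2*, for a chemokine, had no read in sgControl and 14.7, 17.9 and 7.1 normalized counts in the knockout (adjusted p = 3.36e-05). Of the other inflammatory members, *IL1A*, *IL1B* and *IL6* had no counts in any library, while *CXCL8* had 0, 3.2 and 3 normalized counts in the knockout and none in sgControl, too few to be tested.

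Immediate early genes had 10 higher and 7 lower of 22 members (27.5% and 26.4% of all genes tested), with a median log2 difference of 0.25. *EGR1*, for a zinc finger factor, had 15686, 18169.5 and 16076 normalized counts in sgControl and 30406, 27294 and 28452 in the knockout (0.79 ± 0.23, adjusted p = 0.00192), without overlap. *FOS* had 3336, 5208 and 5212 against 4213, 4376 and 4652, values that overlapped (−0.06 ± 0.34, adjusted p = 0.909). The extremes were *CCN2*, for a matricellular protein (12.7 to 392, 4.94 ± 0.28), and *EGR3* (8487 to 1528, −2.47 ± 0.08). *FOSL1*, a further AP-1 subunit, was higher (25.9 to 649, 4.61 ± 0.19).

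Receptor tyrosine kinases had 8 higher and 9 lower of 21 tested members of 24 (27.5% and 26.4% of all genes tested), with a median log2 difference of −0.47. *ERBB2*, for HER2, had 27828, 26605 and 26889 normalized counts in sgControl and 9076, 9882 and 9404 in the knockout (−1.52 ± 0.05, adjusted p = 4.98e-241). *IGF1R* had 6476, 7753 and 5432 against 4300.0, 4483 and 3558 (−0.67 ± 0.15, adjusted p = 1.87e-05), and *FGFR2* 798, 759 and 819 against 462, 578 and 532 (−0.59 ± 0.11, adjusted p = 7.3e-08). All 3 were lower without overlap, and the lowest member was *RET* (3072 to 435, −2.82 ± 0.08). In the other direction, *MET*, for the receptor of hepatocyte growth factor, had 16.2, 17.7 and 22.9 against 434, 451 and 466 (4.56 ± 0.22, adjusted p = 6.83e-97). *EGFR* was higher as well (34.3 to 459, 3.75 ± 0.21), and so was *FGFR1* (0.62 ± 0.05).

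Of the 13 protein-coding genes of the mitochondrial genome, 2 were higher and 4 lower (27.5% and 26.4% of all genes tested), with a median log2 difference of −0.09. *MT-CO1*, for a subunit of complex IV, had 1407191, 1131148 and 1157042 normalized counts in sgControl and 872884, 645022 and 627857 in the knockout (−0.78 ± 0.18, adjusted p = 3.65e-05). *MT-ND1*, of complex I, had 299248, 255187 and 245977 against 202788, 157040.1 and 145095 (−0.66 ± 0.13, adjusted p = 1.67e-06). The groups did not overlap, and replicate 1 was the highest of each group for both genes. *MT-ND6*, encoded on the other strand of the mitochondrial genome, was higher (3592 to 7059, 0.97 ± 0.12).

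Markers of other cell types that a culture could hold were checked, beside shares of 27.5% higher and 26.4% lower among all genes tested. Of 20 basal and mesenchymal markers, 12 were tested, and 5 were higher and 5 lower (median log2 difference 1.18), with summed normalized counts of 5473 to 5910 in sgControl and 6673 to 7081 in the knockout. The defining markers *VIM* and *KRT5* were at 0 in sgControl and had 4.5, 0 and 2 and 1.1, 3.2 and 5 normalized counts in the knockout, too few for *VIM* to be tested and with *KRT5* not passing (adjusted p = 0.104). *KRT17* had 5 reads in sgControl and 302 in the knockout, a ratio of 68.3 with an interval from 28.9 to 212, and *DCN*, for decorin, was lowest (18.3, 19.5 and 23.8 against 0, 1.1 and 4, −3.56 ± 0.91). Of 21 haematopoietic markers, 14 were tested, and 5 were higher and 4 lower (median 0.25), with sums of 2579 to 2818 and 3258 to 3377. *PTPRC*, for CD45, had 3.2, 2.7 and 0 against 3.4, 1.1 and 3 normalized counts and did not pass (adjusted p = 0.866). *LYZ*, for lysozyme, was lower (438, 534 and 544 against 6.8, 22.1 and 16.1, −5.06 ± 0.32). In the other direction, the member with the largest difference was *SCIMP*, with 0, 0 and 2.6 against 582, 633 and 602 normalized counts. *SCIMP* had 3 reads in sgControl and 1712 in the knockout, a ratio of 645 with an interval from 220 to 3130. Of 14 neuroendocrine markers, 8 were tested, and 2 were higher and 0 lower (median 0.86), with sums of 5471 to 5634 and 16299 to 16456. Most of the sum in the knockout was *ENO2*, an enolase (2060.1 to 12426, 2.59 ± 0.05), while *CHGA*, for chromogranin A, had no read in these 6 libraries and *SYP*, for synaptophysin, had 505, 455 and 509 against 512, 466 and 547 (adjusted p = 0.756). Of the 3 lists, 1, 4 and 4 members had no read in any of the 6 libraries, and the part of these markers in the other differences was not tested.

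The genes with the largest fold differences upward, among those with a mean of at least 100 normalized counts over the 6 libraries, were close to silent in sgControl in abemaciclib. Such a gene reaches this mean only through the knockout, so low sgControl values follow from the ranking. In DMSO the sgControl means of these genes ran from 0.5 (*SCIMP*) to 297 (*MYO3A*), with 215 for *FAM20C* and 82.8 for *CTTNBP2*. *CTTNBP2* (chr7:117710651-117874139, minus strand), for a cortactin-binding scaffold, had no read in sgControl and 428, 378 and 402 normalized counts in the knockout, at least 428-fold higher. *FAM20C*, for the kinase of secreted proteins, had 0, 0 and 1.8 against 1433, 1451 and 1369.8, a ratio of 2260 with a 95% counting interval from 626 to 18700. Ratios with their intervals were 865 (155 to 34200) for *GLYATL2*, a glycine acyltransferase, and 645 (220 to 3130) for *SCIMP*, a membrane adaptor of immune cells. They were 624 (172 to 5160) for *GAREM2*, an adaptor of growth factor signalling, 477 (132 to 3950) for *GALNT16*, which starts O-glycans, and 473 (184 to 1740) for *SPSB4*, an adaptor of a ubiquitin ligase. They were 457 (156 to 2220) for *TMEM179*, a membrane protein, and 267 (104 to 981) for *OTULINL*, a relative of a deubiquitinase. *MYO3A*, for a myosin of hair cells, had 5.4, 0 and 0.9 against 689.7, 663 and 736 (8.53 ± 0.60, adjusted p = 2.3e-45).

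Downward, the genes with the largest fold differences were in part close to silent in the knockout, and those reach the required mean only through sgControl. *GSDMA*, for a gasdermin, had 391, 328 and 333 normalized counts in sgControl and 1.1, 0 and 0 in the knockout, a ratio of 983 (176 to 38900). *CLDN2*, for a claudin of leaky tight junctions, had 10333, 9236 and 10829 against 12.5, 12.6 and 17.1 (−9.48 ± 0.25, adjusted p too small to be represented). Ratios were 620 (111 to 24500) for the zinc finger gene *ZNF160*, 359 (99.0 to 2970) for *OLFML3* and 202 (68.8 to 982) for the secreted factor *FAM3D*. *PGLYRP2*, for an amidase that cuts bacterial cell walls, had 2105, 1576 and 1647 against 6.8, 5.3 and 11.1 (−7.83 ± 0.34, adjusted p = 1.04e-116), and *A2M*, for alpha-2-macroglobulin, 1290.0, 1188 and 1263 against 9.1, 4.2 and 5 (−7.69 ± 0.37, adjusted p = 2.81e-96). *BPIFB1* and *MGP*, given above, were also among them. Both fold rankings took only genes whose groups did not overlap, so the separation of the groups for these genes was set by the selection.

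Ranked by the difference in normalized counts, cytoskeletal genes led upward and secreted and mitochondrial genes downward. *KRT18*, the partner of *KRT8*, had 76616, 66290.4 and 68160.5 normalized counts in sgControl and 195440.1, 180025 and 185471 in the knockout (1.41 ± 0.11, adjusted p = 1.11e-39). *ACTB* (0.76 ± 0.10), *ACTG1* (0.78 ± 0.09), *TUBA1B* (1.94 ± 0.08) and *RPS2*, a ribosomal protein gene (0.48 ± 0.12, adjusted p = 0.000184), completed the upward list with *KRT8*. Downward, *IGFBP5*, *MT-CO1*, *MGP* and *TFF1* were joined by the mitochondrial ribosomal RNA *MT-RNR2* and by *SCD*. *SCD*, for stearoyl-CoA desaturase, had 325543, 313640.5 and 343594 against 154168, 153609 and 155668 (−1.08 ± 0.05, adjusted p = 1.63e-88). *MT-RNR2* had 1284214, 945336 and 1041794 against 834986, 584139.6 and 595058 (−0.70 ± 0.24, adjusted p = 0.00861), and it did not pass without replicate 1 of sgControl (adjusted p = 0.0648), without replicate 2 of the knockout (0.0554) or without replicate 3 of the knockout (0.0527). Of these 30 genes, *CTTNBP2*, *GLYATL2*, *TMEM179*, *CLDN2*, *MGP*, *A2M*, *FAM3D*, *KRT8*, *KRT18* and *IGFBP5* share their position with a gene of the opposite strand and *RPS2* with genes of its own strand, so their reads could be shared. *KRT8*, *KRT18*, *ACTB*, *ACTG1*, *TUBA1B* and *RPS2* also have near-identical copies elsewhere.

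To set the drug-exposed difference beside the one without drug, the same genotypes were compared in DMSO, which shares no library with the comparison above. There 6201 of 19757 genes were called. Of the 12002 genes called in abemaciclib, 4068 (33.9%) were called in the same direction in DMSO, 6971 (58.1%) were not called there and 963 (8.02%) were called in the opposite direction. The difference between the contrasts was itself called for 7825 of them, beside 41.2% of all 21008 genes tested for it. Choosing genes by their call in abemaciclib favours larger differences there. Among those of the same direction with this call, the genotype difference was larger in abemaciclib for 2183 and smaller for 90. The median absolute log2 difference of the same-direction genes was 0.97 in abemaciclib and 0.46 in DMSO. For the 963 of opposite direction, the medians were 0.52 and 0.31. A gene that did not pass in DMSO was not thereby shown to be equal there, and of the 6971 such genes the difference between the contrasts was called for 4589.

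**Figure D4:**
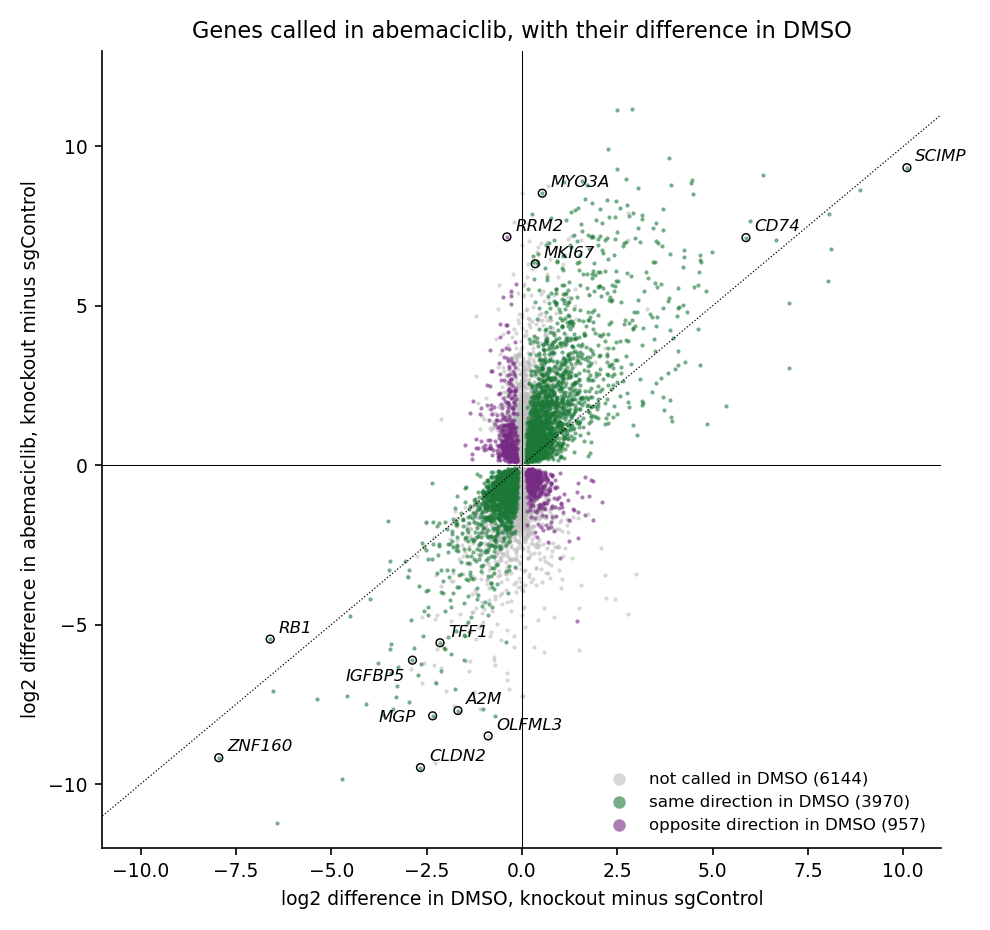
Log2 difference (knockout minus sgControl) in DMSO (horizontal axis) against that in abemaciclib (vertical axis) for the 11071 called genes with a mean of at least 10 normalized counts over the 6 abemaciclib libraries, coloured by whether they were called in DMSO in the same direction (3970), not called (6144) or called in the opposite direction (957). The dotted line marks equal differences.

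Named genes fell into each class. *MKI67* had means of 28035 and 35750.1 normalized counts in DMSO (log2 difference 0.35) and was not called there. *TOP2A* was lower in the knockout in DMSO (19226 to 14358, −0.42) and higher in abemaciclib, and *RRM2* likewise (−0.39). *MGP* and *TFF1* were lower in both, by −2.34 and −2.15 in DMSO. *CD74* was higher in both (4.8 to 264, 5.88). *SCIMP* was near silent in sgControl and present in the knockout with either treatment (0.5 to 577 in DMSO), and *ZNF160* was likewise lower in both (−7.95). Neither passed the test of a difference between the contrasts (adjusted p = 0.702 and 0.618). Of the G1 list, 6 members were higher and 8 lower in the knockout in DMSO (16.2% and 15.2% of all genes tested there). The difference between the contrasts was called for 22 of 22. In DMSO the higher and lower counts were 4 and 2 for E2F and DP genes and 8 and 12 for licensing. They were 7 and 7 for nucleotide supply and 2 and 11 for recombination.

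Genes of chromosome 13, which carries *RB1*, were mostly lower beyond 34 Mb. This chromosome was set apart and split because earlier results of these data showed a shift there. Among genes with a mean of at least 100 normalized counts, the 143 beyond 34 Mb had a median log2 difference of −0.52, with 95 lower and 30 higher, and in DMSO the median was −0.69. The 46 genes before 34 Mb had a median of 0.13 and the 11335 genes of all other chromosomes −0.02, of which 36.1% were higher and 38.3% lower. The medians of the other chromosomes lay between −0.11 (chromosome 16) and 0.17 (chromosome 18). *RB1*, *LAMP1* and *EPSTI1* lie beyond 34 Mb, and so does *TFDP1*, for the partner of E2F, which was lower in DMSO (−0.63) and higher in abemaciclib (0.25 ± 0.04).

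**Figure D5:**
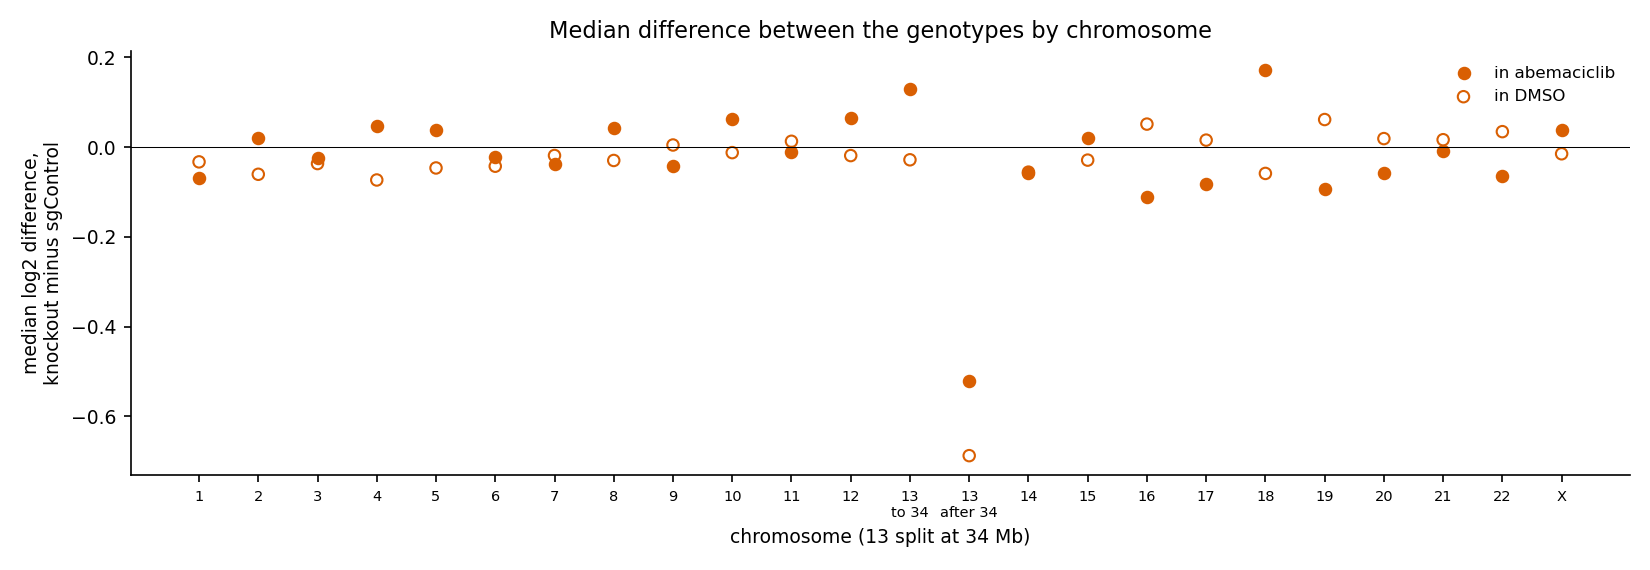
Median log2 difference (knockout minus sgControl) of the genes with a mean of at least 100 normalized counts on each chromosome, with chromosome 13 split at 34 Mb. Filled points are abemaciclib and open points DMSO. In abemaciclib the part beyond 34 Mb lies at −0.52, with the other chromosomes between −0.11 and 0.17, and in DMSO it lies at −0.69. The split was set with earlier results of these data known.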

How the data were processed

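RNA-seq was read for ZR-75-1 cells of 2 genotypes and 2 treatments, 3 libraries each. The authors deposited raw read counts per gene, not normalized, made per their methods and processing notes with BBDuk, STAR 2.7.5b and featureCounts 2.0.1 on GRCh38 with a GENCODE annotation. The handling of strand and of reads with several positions is not given in the sources used here. The labels name a directional whole-transcript kit and the paper's general methods a 3′ kit, so lengths were not used.

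Of 60656 rows, 44 without a gene name (0% of counts) were left out, 28342 had no count, and 1079 shared 76 symbols. Counts were fitted with DESeq2 1.42.0 (R 4.3.3) over all 12 libraries, with a mean per group, median-of-ratios factors, no shrinkage and Benjamini-Hochberg adjustment after independent filtering, called at 0.05. The scripts were tested on simulated data. Replicate numbers are shared between groups. Same-numbered deviations correlated by 0.14, 0.23 and 0.11 in abemaciclib, above the threshold of 0.1 used to treat the numbers as pairs. Differently numbered ones there lay between −0.14 and −0.011. The same-numbered values in DMSO were −0.24, −0.012 and 0.079, and differently numbered ones reached 0.25, so correlations of this size do not establish pairing. No replicates agreed within sampling noise (chi-square per gene at least 6.73).

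The 22 gene lists (647 genes) and the comparison were chosen with earlier results of these data known. Named were the lead genes and the 2 extremes of each list, 10 genes per direction by fold (mean of at least 100, no overlap) and 6 by absolute difference, and further list members were chosen after their values were seen. Of the genes the rule selects, 8 are not reported here. The 19 alternative fits covered the samples fitted, factors (TMM, total counts), edgeR 4.0.16, a filter of 10 counts in 3 samples, the replicate block and each library left out. Positions came from GENCODE, promoter letters from RefSeq. Depth was 39907318 to 81636393 counts, and 95% intervals (exact) and floors of 3 counts cover counting error only, since reads are not independent molecules.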

Additional observations from a re-analysis of the deposited data

Results flagged for a closer look

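The knockout minus sgControl difference itself differed between abemaciclib and DMSO, by the interaction term of the DESeq2 fit, for 7825 of the genes called in abemaciclib and for 27 of the genes named by size. Of all 21008 genes tested for the interaction, 8665 (41.2%) passed. The 7825 and the 27 genes were chosen by the abemaciclib contrast, which enters the interaction. Large values of the same sign are therefore favoured by the selection. The values below are the log2 difference in abemaciclib minus that in DMSO. Among genes higher in the knockout in abemaciclib they were 8.65 for *FAM20C*, 8.30 for *CTTNBP2*, 8.00 for *MYO3A*, 7.77 for *SPSB4*, 7.34 for *GALNT16*, 6.81 for *GAREM2*, 6.58 for *OTULINL*, 5.78 for *GLYATL2* and 4.41 for *TMEM179*. The cytoskeletal genes had smaller values, with 1.94 for *TUBA1B*, 1.15 for *KRT18*, 0.95 for *KRT8*, 0.51 for *ACTB* and 0.48 for *ACTG1*. Among genes lower in the knockout they were −7.61 for *OLFML3*, −7.16 for *BPIFB1*, −6.82 for *CLDN2*, −6.56 for *FAM3D*, −6.02 for *A2M*, −5.52 for *MGP*, −5.13 for *GSDMA*, −4.19 for *PGLYRP2*, −3.42 for *TFF1* and −3.25 for *IGFBP5*. Those of *MT-RNR2*, *SCD* and *MT-CO1* were −0.90, −0.86 and −0.69. Values of genes with few or no reads in a group depend on the fit and are not bounds.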

How the results depend on the processing

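No gene called in the comparison was called in the opposite direction in any of the 19 alternative fits, and 90.0 to 99.1% of the 12002 calls were kept. With the replicate number as a block in the fit of 12 libraries 11754 genes were called, and among the named genes this ended the call of *GREB1* alone. The block in the 6 libraries alone, whose numbers were treated as pairs, gave 11355 calls, kept the call of *GREB1* (adjusted p = 5.45e-11) and added *MDM2* (0.00111). Without chromosome 13 beyond 34 Mb, an alternative chosen after seeing the data, only the totals of higher, lower and 2-fold genes were recomputed. They stayed within 1.5 times, but the region holds too few genes to move them further. The list counts were not recomputed without it. Counts over all genes stayed within 1.5 times of those reported, and so did 812 of the list counts, while 24 moved. Total-count factors gave 0 lower nucleotide genes, 2 lower recombination genes, 2 lower interferon-stimulated genes and 4 higher neuroendocrine markers. The 6 libraries alone gave 4 higher neuroendocrine markers and 1 higher mitochondrial gene, the low-count filter 4 higher neuroendocrine markers and 1 lower E2F gene, and edgeR 1 lower E2F gene. Leaving out single libraries, the ranges were 0 to 1 lower nucleotide genes, 2 to 4 lower recombination genes, 3 to 6 lower interferon-stimulated genes, 2 to 5 lower antigen presentation genes, 1 to 2 higher mitochondrial genes, 3 to 5 lower basal markers and 1 to 4 higher neuroendocrine markers. Log2 differences that were not called changed sign for *PGR* (0.015) and *FOS* (0.053) with total-count factors, and without single libraries for *FOS* (−0.24 to 0.044), *PTPRC* (−0.24 to 0.90) and *SYP* (−0.0015 to 0.11). *GREB1* was also not called in the 6 libraries alone (adjusted p = 0.0663), with TMM factors (0.0568), without any 1 knockout library in DMSO (0.0539 to 0.0571) or without replicate 3 of sgControl in DMSO (0.0898). The causes were not tested. Genes with a handful of reads in a group are limited by depth, as their intervals show.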
